A study of Mus musculus with 12 samples.

Results

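The interferon-inducible GTPases described here are 8 genes of 24454 in the table: the immunity-related GTPase (IRG) genes Irgm1, Irgm2, Igtp and Iigp1, and the guanylate-binding protein (GBP) genes Gbp2, Gbp3, Gbp7 and Gbp9. They were taken as a named list of the 2 families and found through their Entrez IDs. The rule itself uses no measured value, but the members were chosen with earlier results of these data known. Their counts beside all tested genes are therefore descriptive. RNA was measured by sequencing in 3 mouse mammary tumour lines that the labels call mesenchymal: MT∆Ecad, derived from the MMTV-Neu strain and marked by its name as lacking E-cadherin, and PyMT-1099 LT and Py2T LT, derived from the MMTV-PyMT strain. In both strains a mammary tumour virus promoter drives an oncogene, the receptor tyrosine kinase Neu or the polyoma virus middle T antigen. The cells of each line received, for 48 hours, either siNrf2, which targets Nfe2l2, the gene of the antioxidant transcription factor NRF2, or the non-targeting siCtl. All 12 cultures thus carried a transfected siRNA, and no untransfected or interferon-treated culture was analysed here. Each of the 6 groups held 2 libraries, which the series text calls biological, and each tumour type is represented by 1 or 2 lines, so a difference of line, of oncogene and of E-cadherin loss cannot be told apart.

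IRG and GBP proteins are large GTPases that cells make when interferons signal through JAK kinases and STAT transcription factors. They gather on the vacuoles of intracellular bacteria and parasites and help to break them open. Among the IRG proteins, Irgm1, Irgm2 and Igtp (also called Irgm3) are the regulators that stay on the cell's own membranes and hold the effector IRG proteins, such as Iigp1, in their inactive state. Their promoters carry the interferon-stimulated response element (ISRE), which binds interferon regulatory factors, and some carry the gamma-activated site (GAS), a second element of the interferon response.

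The members fall into clusters on the mouse genome (build GRCm38.p6, RefSeq). Irgm1 (Entrez 15944) lies at chr11:48865245-48871420 on the minus strand, and Igtp (16145, chr11:58199556-58207592) and Irgm2 (54396, chr11:58214977-58222783) lie next to each other on the plus strand. Gbp7 (229900, chr3:142530336-142550151), Gbp3 (55932, chr3:142560016-142573213) and Gbp2 (14469, chr3:142620663-142638008) stand in a row on the plus strand. Gbp9 (236573) lies at chr5:105076464-105110357 on the minus strand. All 8 are annotated as protein-coding.

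RefSeq promoter sequences (GRCm38.p6, 250 bases before to 50 bases after the start) were searched for 6 of the 8 members. Iigp1 was left out of the search, and no promoter sequence was found for Gbp9. The 40 bases around an ISRE core of each of the 6 are shown because the same core recurs in all 6. Each is written on the strand of its gene, and capitals mark the letters GAAANNGAAA, or its reverse complement, wherever they match.
Irgm1: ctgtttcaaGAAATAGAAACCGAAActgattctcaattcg
Irgm2: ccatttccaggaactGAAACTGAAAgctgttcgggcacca
Igtp: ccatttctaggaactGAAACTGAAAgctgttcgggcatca
Gbp2: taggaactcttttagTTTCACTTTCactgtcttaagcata
Gbp3: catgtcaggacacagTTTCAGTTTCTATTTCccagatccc
Gbp7: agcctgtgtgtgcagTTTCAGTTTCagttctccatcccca
The windows lie at chr11:48871420-48871459 (Irgm1), chr11:58214898-58214937 (Irgm2), chr11:58199507-58199546 (Igtp), chr3:142620589-142620628 (Gbp2), chr3:142559984-142560023 (Gbp3) and chr3:142530268-142530307 (Gbp7).

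Searched on both strands, the ISRE core was held by 6 of the 6 searched GTPase genes, counted by gene. Counted by promoter, it was held by 3.44% of 32851 RefSeq mouse promoters of the same length and 2.82% of the promoters of the genes tested here. In Irgm1 and in Gbp3 there were 2 overlapping matches, and Gbp3 has a second annotated start whose promoter held no match. The 3 IRG promoters carried the core in the gene's own direction and the 3 GBP promoters in the opposite one. The matches began 24 to 64 bases before the start, as the map of the promoters shows. A GAS core (TTCNNNGAA) was held by Irgm2, Igtp and Gbp7, against 8.30% of all promoters, and in Irgm2 and Igtp it stood next to the ISRE core without overlapping it. The Igtp and Irgm2 promoters were 93.6% identical over 264 aligned bases, with an unbroken identical stretch of 61 bases. A match is a run of letters and not a shown binding site.

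**Figure D1:**
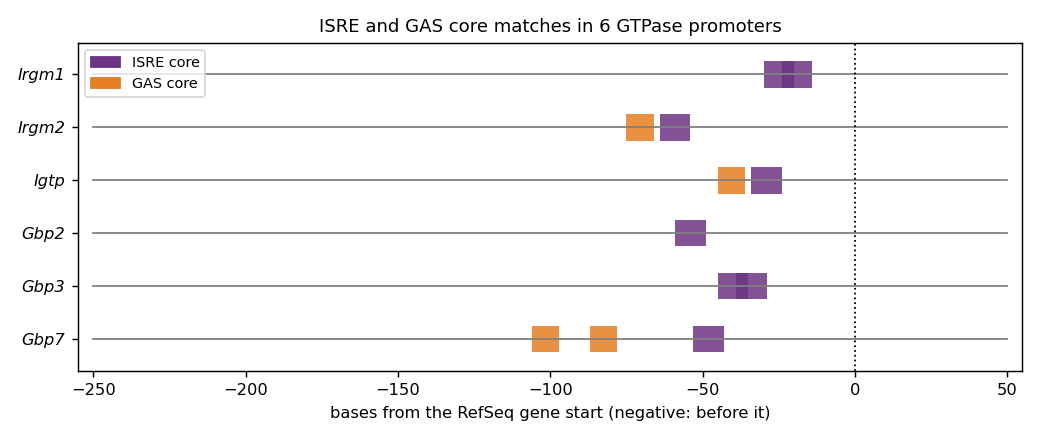
Positions of ISRE core (purple) and GAS core (orange) matches in the promoters of 6 GTPase genes, in bases from the RefSeq start (dotted line at 0). All 6 promoters hold an ISRE core shortly before the start, and Irgm2, Igtp and Gbp7 also hold a GAS core.

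The values are CPM, the authors' read counts scaled to library size, from libraries of 27088970 to 37070635 reads, in which 27.1 to 37.1 reads make 1 CPM. Differences were tested with limma on log2(CPM + 1), with p-values adjusted (Benjamini-Hochberg) over the 12502 genes that reached a CPM of 1 in at least 2 libraries, and a gene is called at an adjusted p under 0.05. This scale understates the change of low genes, so the ratio of the mean CPM is given beside it. Of the 8 members, 7 were tested, and Iigp1 stayed under the filter. After siNrf2, MT∆Ecad kept 25.2% of its Nfe2l2 CPM, PyMT-1099 LT kept 26.1% and Py2T LT kept 26.8%. The mesenchymal markers Vim and Fn1 were high in all 3 lines, but so were the epithelial keratins Krt8 and Krt18. Other listed epithelial markers were lower: Epcam, Esrp1 and Cldn3 reached at most 30.8, 17.8 and 13.5 CPM in any library, and Cldn7 and Ocln stayed under 1 CPM. Among other listed mesenchymal markers, Col1a1, Cdh2 and Zeb1 reached at most 252, 240 and 104 CPM, and Zeb2, Snai1 and Twist1 69.8, 55.7 and 18.4 CPM. Cdh1, which encodes E-cadherin, averaged 0.477 and 0.393 CPM in siNrf2 and siCtl MT∆Ecad, 61.8 and 49.7 CPM in PyMT-1099 LT, and 16.4 and 13.9 CPM in Py2T LT.

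In MT∆Ecad cells, the GTPase genes were higher after siNrf2 as a family. All 8 genes had both siNrf2 libraries above both siCtl libraries, a pattern shown by 32.5% of tested genes in this line. Of the 7 tested members, 6 rose, none fell and 1, Gbp9, did not pass, where 8.89% of all tested genes rose and 8.42% fell. These shares stand for 1111 and 1053 genes, which became 294 and 266 without siNrf2 replicate 2 and 319 and 231 without siCtl replicate 1 of MT∆Ecad. Their median log2 fold change was 1.27, beside 0 over all tested genes. Added over the 8 members, 174 and 175 CPM were measured after siNrf2, against 89.0 and 83.2 CPM after siCtl.

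**Figure D2:**
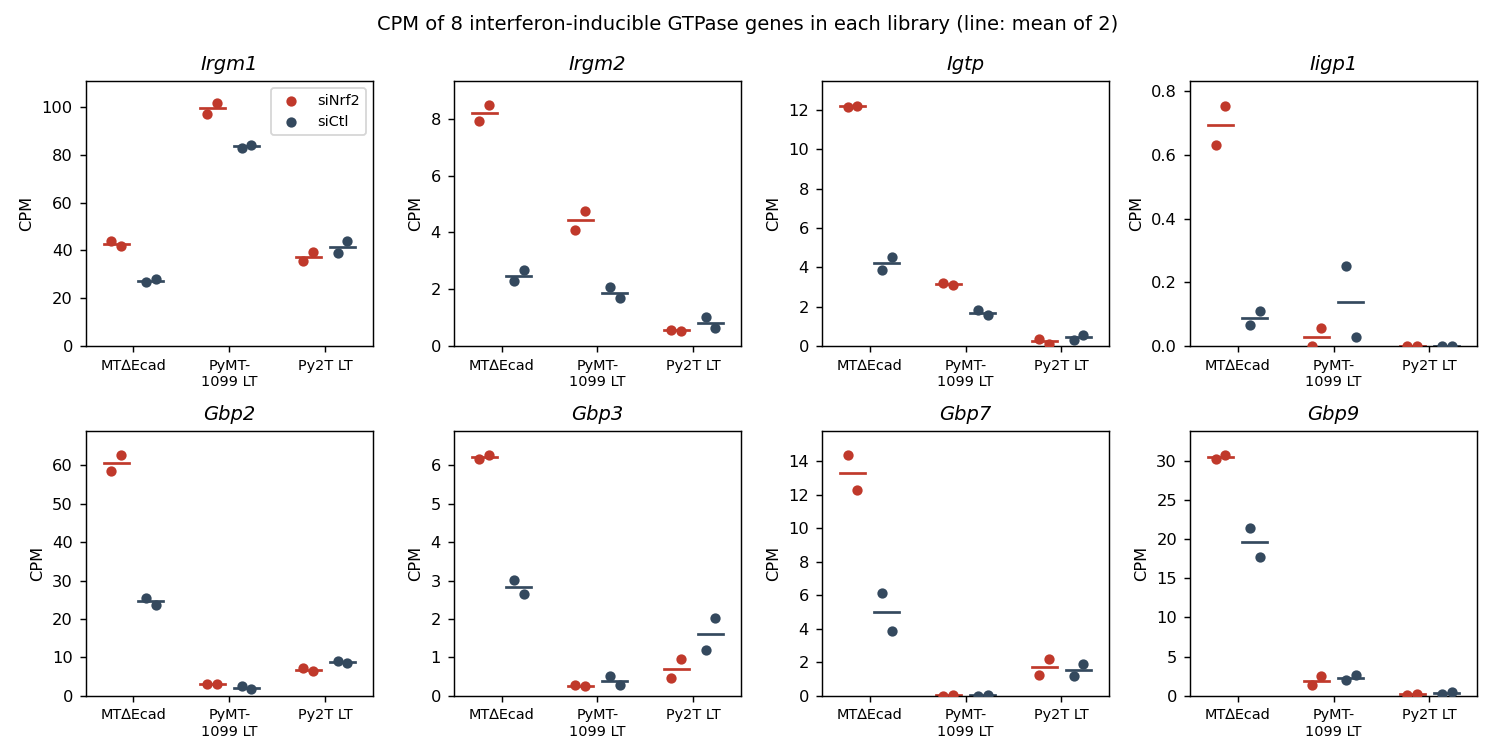
CPM of each GTPase gene (linear axes from 0, a separate scale per gene) in the siNrf2 (red) and siCtl (dark) libraries of each line, with a line at the mean of 2. The red points lie above the dark points for all 8 genes in MT∆Ecad, and Irgm1 is highest in PyMT-1099 LT whereas the GBP genes are highest in MT∆Ecad.

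Among the regulatory IRG genes, Irgm1 had 43.8 and 41.9 CPM in the siNrf2 libraries of MT∆Ecad and 26.7 and 27.9 CPM in the siCtl libraries. Both replicates of each siRNA lay close together and far from the other siRNA. The mean was 1.57 times as high after siNrf2, or 0.63 higher on the log2 scale (SE 0.0911, limma adjusted p = 0.00276).

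Irgm2 changed most on both scales among the tested members. It had 7.92 and 8.48 CPM after siNrf2 and 2.30 and 2.66 CPM after siCtl, and the groups were well apart. The mean ratio was 3.31 and the log2 fold change 1.40 (SE 0.129, limma adjusted p = 5.1e-04).

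Igtp, the neighbour of Irgm2, had 12.1 and 12.2 CPM after siNrf2 and 3.89 and 4.54 CPM after siCtl in MT∆Ecad. Its groups were also well apart, with a mean ratio of 2.89, and its log2 fold change was 1.34 (SE 0.131, limma adjusted p = 5.6e-04). The annotated exons of Igtp and Irgm2 overlap by 162 bases, and 7.02% of the 81-base stretches of Igtp also occur elsewhere in the annotated transcripts, all in Irgm2. How the authors' counting treated such reads is not given in the sources used here, so the split between these 2 genes is uncertain to that extent.

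Iigp1 (Entrez 60440), an effector IRG gene, was barely detected. In MT∆Ecad it had 0.631 and 0.755 CPM after siNrf2 and 0.0648 and 0.111 CPM after siCtl. These values stand for 46 reads in the 2 siNrf2 libraries and 5 in the 2 siCtl libraries, a ratio of 8.06 per read sequenced (exact 95% binomial interval 3.22 to 26.0, which covers counting error only). The siNrf2 libraries were the higher ones, and in a fit without the filter its log2 fold change was 0.64 (SE 0.0798, limma adjusted p = 0.00259).

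Among the GBP genes, Gbp2, whose protein is anchored to vacuole membranes by a lipid tail, was the most abundant in this line. It had 58.6 and 62.7 CPM after siNrf2 and 25.4 and 23.8 CPM after siCtl in MT∆Ecad, with each pair of replicates close. The mean ratio was 2.47 and the log2 fold change 1.27 (SE 0.121, limma adjusted p = 5.6e-04).

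Gbp3 had 6.18 and 6.28 CPM after siNrf2 and 3.01 and 2.66 CPM after siCtl. The groups did not overlap, and the mean ratio was 2.20. Its log2 fold change of 0.92 (SE 0.177) passed with a limma adjusted p of 0.00903, but the call was lost with a pseudocount of 0.1 and without siNrf2 replicate 2, siCtl replicate 1 or siCtl replicate 2 of MT∆Ecad.

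Gbp7, needed in mice for control of the parasite Toxoplasma gondii, had 14.3 and 12.3 CPM after siNrf2 and 6.12 and 3.88 CPM after siCtl. The siCtl libraries differed more from each other than those of any other member relative to their mean, apart from Iigp1, but lay below both siNrf2 libraries. The mean ratio was 2.66 and the log2 fold change 1.28 (SE 0.217, limma adjusted p = 0.0055). Gbp7 shares 10.96% of its 81-base stretches with Gbp3 and the pseudogene Gm43802, which overlaps its exons on the same strand by 637 bases, so its own share of those reads is uncertain.

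Gbp9 had 30.2 and 30.7 CPM after siNrf2 and 21.4 and 17.8 CPM after siCtl. The groups did not overlap, with a mean ratio of 1.55 and a log2 fold change of 0.62 (SE 0.201), but the limma adjusted p was 0.0665. With the replicate number as a block, which pairs the libraries of a line, it passed at an adjusted p of 0.00466. The block called 5324 of all tested genes in this line, against 2164 without it. Of the 81-base stretches of Gbp9, 2.97% also occur in other GBP genes.

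In PyMT-1099 LT cells Irgm2 was the 1 GTPase gene called, and it rose after siNrf2. The GBP genes were low in this line. For Irgm1, Irgm2, Igtp and Gbp2 both siNrf2 libraries lay above both siCtl libraries, as for 20.0% of tested genes, and for Gbp3 they lay below, as for 17.1%. Of the 7 tested members, 1 rose, against 0.336% of all tested genes, and their median log2 fold change was 0.25, beside -0.00 over all tested genes.

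Irgm2 had 4.10 and 4.74 CPM in the siNrf2 libraries of PyMT-1099 LT and 2.08 and 1.69 CPM in the siCtl libraries. The groups were apart, with a mean ratio of 2.35 and a log2 difference of 0.91 (SE 0.129, limma adjusted p = 0.0199). The call was lost with a pseudocount of 0.1, with edgeR, in a fit of this line alone, and without any 1 of the 4 libraries of this line or the 2 siNrf2 libraries of MT∆Ecad. Igtp had 3.21 and 3.12 CPM after siNrf2 and 1.83 and 1.57 CPM after siCtl, a log2 fold change of 0.63 with a limma adjusted p of 0.101, and 0.0354 with the replicate block.

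Irgm1 was abundant in PyMT-1099 LT, with 97.3 and 102 CPM after siNrf2 and 82.9 and 84.1 CPM after siCtl. The siNrf2 libraries were the higher ones, but the mean ratio was 1.19 and the log2 fold change of 0.25 had a limma adjusted p of 0.372, and 0.0422 with the replicate block. The replicate block thus gave 3 calls in this line in place of 1, and 1125 over all tested genes in place of 65. Gbp2 had 2.94 and 2.95 CPM after siNrf2 and 2.48 and 1.80 CPM after siCtl, and its log2 fold change of 0.34 was not called (limma adjusted p = 0.367).

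The other members were low in this line. Gbp9 had 1.37 and 2.47 CPM after siNrf2 and 1.97 and 2.66 CPM after siCtl, and Gbp3 0.273 and 0.253 CPM after siNrf2 and 0.502 and 0.286 CPM after siCtl, neither called. Gbp7 had 1 read in the siNrf2 libraries together and 1 in the siCtl libraries, and Iigp1 had 2 and 8 reads, so neither had a measurable change at this depth.

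In Py2T LT cells no GTPase gene was called in either direction, where 0.152% of all tested genes were. The median log2 fold change of the 7 members was -0.22, beside -0.02 over all tested genes. At an unadjusted limma p under 0.05 there were 2 members, Gbp2 and Gbp3, both lower after siNrf2. Of the 12502 tested genes, 674 were under that p in this line. No member was called by edgeR or DESeq2. For Irgm2, Gbp2 and Gbp3 both siNrf2 libraries lay below both siCtl libraries, as for 15.9% of tested genes, and for 0 members above, against 7.63%.

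Irgm1, the most abundant member here, had 35.4 and 39.3 CPM in the siNrf2 libraries of Py2T LT and 39.1 and 44.0 CPM in the siCtl libraries, and the groups overlapped. Gbp2 had 7.10 and 6.47 CPM after siNrf2 and 9.11 and 8.61 CPM after siCtl, which is -0.34 on the log2 scale (SE 0.121, limma adjusted p = 0.686). Gbp3 had 0.452 and 0.949 CPM after siNrf2 and 1.18 and 2.02 CPM after siCtl, a log2 fold change of -0.61 (SE 0.177) with a limma adjusted p of 0.499, and 0.029 with the replicate block. It is the 1 member that the replicate block called in this line, and the 1 called as lower in any line under that block. The block called 127 of all tested genes in this line, against 19 without it.

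The remaining members of Py2T LT were within about 2 CPM of 0. Gbp7 had 1.26 and 2.18 CPM after siNrf2 and 1.18 and 1.89 CPM after siCtl, with overlapping groups. Irgm2 had 0.581 and 0.530 CPM after siNrf2 and 1.01 and 0.620 CPM after siCtl, Igtp 0.355 and 0.112 CPM after siNrf2 and 0.304 and 0.566 CPM after siCtl, and Gbp9 0.129 and 0.223 CPM after siNrf2 and 0.169 and 0.513 CPM after siCtl. Iigp1 had no read in any of the 4 libraries.

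**Figure D3:**
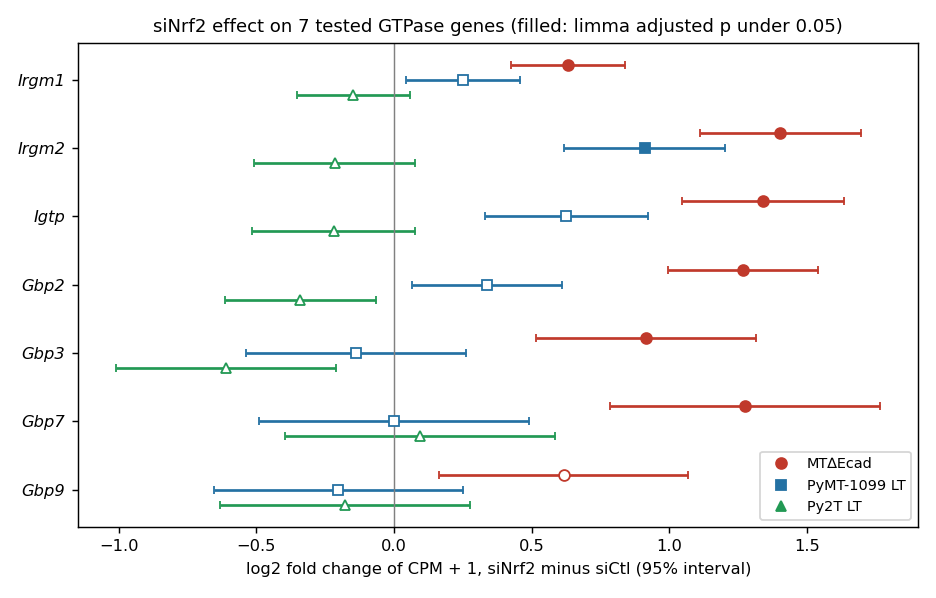
Log2 fold change of CPM + 1 (siNrf2 minus siCtl) with its 95% limma interval for the 7 tested GTPase genes in MT∆Ecad (red circles), PyMT-1099 LT (blue squares) and Py2T LT (green triangles), filled where the limma adjusted p is under 0.05. The 6 filled circles of MT∆Ecad lie between 0.63 and 1.40, and the 1 filled square is Irgm2.

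The response to siNrf2 differed between the lines for 5 of the 7 tested members: Irgm1, Irgm2, Igtp, Gbp2 and Gbp3 passed an F test of the difference, which 2.18% of all tested genes did. Their limma adjusted p-values were 0.0389, 0.00956, 0.0114, 0.00932 and 0.0358. Gbp7 (adjusted p = 0.095) and Gbp9 (adjusted p = 0.249) did not pass, and with the replicate block both did (adjusted p = 0.00371 and 0.0199). Over all tested genes the block raised the count that passed from 273 to 2377. The count of 5 fell to 0 without siNrf2 replicate 2 or without siCtl replicate 1 of MT∆Ecad, to 3 (Irgm2, Igtp and Gbp2) without any 1 of 8 other libraries, to 2 with a pseudocount of 0.1 and to 1, Gbp2, with edgeR.

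Set against Py2T LT, the siNrf2 effect in MT∆Ecad was larger for 5 members, where 2.54% of all tested genes had a larger effect. The difference of the log2 fold changes was 1.62 for Irgm2 (SE 0.183, limma adjusted p = 0.0057), 1.61 for Gbp2 (SE 0.171, adjusted p = 0.00437) and 1.56 for Igtp (SE 0.185, adjusted p = 0.00624). It was 1.53 for Gbp3 (SE 0.25, adjusted p = 0.0175) and 0.78 for Irgm1 (SE 0.129, adjusted p = 0.0182). With limma, Gbp7 (1.18, adjusted p = 0.0741) and Gbp9 (0.79, adjusted p = 0.170) did not pass, but did with the replicate block (adjusted p = 0.00266 and 0.0140), which called all 7. Over all tested genes the block called 2859 in either direction, against 437 without it. The count fell to 3 with a pseudocount of 0.1, with edgeR, in a fit of these 2 lines alone, and without siNrf2 replicate 2 or siCtl replicate 1 of MT∆Ecad or siCtl replicate 2 of Py2T LT.

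Set against PyMT-1099 LT, it was larger for Gbp2, by 0.93 (SE 0.171, limma adjusted p = 0.0336), where 1.16% of all tested genes had a larger effect. The other 6 tested members had differences between 0.38 and 1.28 that did not pass, and the replicate block called 6 members, Irgm2 not among them. Over all tested genes the block called 1810 in either direction, against 226 without it. The call of Gbp2 was lost with edgeR and DESeq2, with a pseudocount of 0.1, without a filter, in a fit of these 2 lines alone, and without any of 9 libraries in turn. For Irgm2 the 95% interval of the difference ran from 0.08 to 0.91, so a similar and a clearly smaller response in PyMT-1099 LT both lie within the error.

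Between PyMT-1099 LT and Py2T LT no member's response was called as different by limma, edgeR or DESeq2, where limma called 0.00800% of tested genes. At an unadjusted limma p under 0.05 there were 4 members, Irgm1, Irgm2, Igtp and Gbp2, and 496 of the 12502 tested genes. The largest difference was that of Irgm2, 1.13 (SE 0.183, limma adjusted p = 0.156).

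Averaged over the 3 lines, which weights them equally, 5 of the 7 tested members rose (Irgm1, Irgm2, Igtp, Gbp2 and Gbp7), where 5.99% of all tested genes did. The average log2 fold change ranged from 0.24 for Irgm1 to 0.70 for Irgm2 (limma adjusted p = 0.0204 and 0.00184). Gbp3 and Gbp9 averaged 0.06 and 0.08, their higher values in MT∆Ecad standing beside values below 0 in the other lines. These averages contain the MT∆Ecad values described above and are no separate evidence. The count was 3 with edgeR, DESeq2 or a pseudocount of 0.1, and also 3 without 6 of the 12 libraries in turn.

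The siCtl cultures of the lines also differed in which GTPase genes they expressed. In the siCtl libraries the GBP genes were highest in MT∆Ecad, and Irgm1 was highest in PyMT-1099 LT. Between MT∆Ecad and PyMT-1099 LT, 5 of the 7 tested members were higher in MT∆Ecad (27.0% of all tested genes were) and Irgm1 was lower (30.6% were). Between MT∆Ecad and Py2T LT, 6 were higher (25.9%) and Irgm1 was lower (28.6%). Between PyMT-1099 LT and Py2T LT, 4 were higher (27.5%) and 3 lower (28.1%). In either direction, 57.6%, 54.4% and 55.6% of all tested genes differed in these comparisons, so a difference between lines is usual here.

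Gbp2 averaged 24.6 ± 1.17 CPM in siCtl MT∆Ecad, 2.14 ± 0.478 CPM in PyMT-1099 LT and 8.86 ± 0.356 CPM in Py2T LT (SD, n = 2 each). The order of the lines was MT∆Ecad, Py2T LT, PyMT-1099 LT, and each neighbour differed (log2 differences of 1.38 for MT∆Ecad minus Py2T LT and -1.66 for PyMT-1099 LT minus Py2T LT, limma adjusted p = 8.5e-06 and 1.9e-06). Gbp3 and Gbp7 followed the same order, and all neighbours differed, except that MT∆Ecad and Py2T LT were not called apart for Gbp3 with edgeR, DESeq2 or a pseudocount of 0.1. For Gbp7 this meant 5.00 ± 1.59 CPM in MT∆Ecad, 0.0143 ± 0.0202 CPM in PyMT-1099 LT and 1.53 ± 0.50 CPM in Py2T LT.

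Gbp9 averaged 19.6 ± 2.59 CPM in siCtl MT∆Ecad, 2.31 ± 0.483 CPM in PyMT-1099 LT and 0.341 ± 0.243 CPM in Py2T LT, so its order was MT∆Ecad, PyMT-1099 LT, Py2T LT. Igtp followed this order too, and for both genes each neighbour differed (limma). Irgm2 averaged 2.48 ± 0.253 CPM in MT∆Ecad and 1.88 ± 0.280 CPM in PyMT-1099 LT, which did not differ beyond their spread (log2 difference 0.27, limma adjusted p = 0.101), and 0.816 ± 0.277 CPM in Py2T LT, below both.

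Irgm1 ran against the other members. It averaged 27.3 ± 0.808 CPM in siCtl MT∆Ecad, 83.5 ± 0.818 CPM in PyMT-1099 LT and 41.5 ± 3.46 CPM in Py2T LT. The log2 difference was -1.58 for MT∆Ecad minus PyMT-1099 LT and -0.59 for MT∆Ecad minus Py2T LT (limma adjusted p = 2.9e-07 and 4.5e-04). In bulk RNA, fewer cells that express a gene and less of its RNA per cell cannot be told apart.

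Per length of annotated exon, MT∆Ecad was led by Gbp2 and both MMTV-PyMT lines by Irgm1. In MT∆Ecad, Gbp2 stood at 24.1 CPM per kb after siNrf2 and 9.78 CPM per kb after siCtl, and made up 47.2% and 49.2% of the summed CPM per kb of the 8 members after siNrf2 and 43.2% and 42.6% after siCtl. In PyMT-1099 LT, Irgm1 made up 79.9% and 79.3% after siNrf2 and 82.5% and 85.0% after siCtl. In Py2T LT its share was 63.2% and 66.0% after siNrf2 and 59.1% and 60.6% after siCtl.

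The make-up of MT∆Ecad moved as the sum rose. Irgm1 took 15.3% and 14.3% of the summed CPM per kb after siNrf2, against 19.6% and 21.6% after siCtl, and Gbp9 took 11.8% and 11.7% against 17.7% and 15.5%. Both are the members with the smallest ratios in this line, and the libraries of the 2 siRNAs did not overlap in either share.

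**Figure D4:**
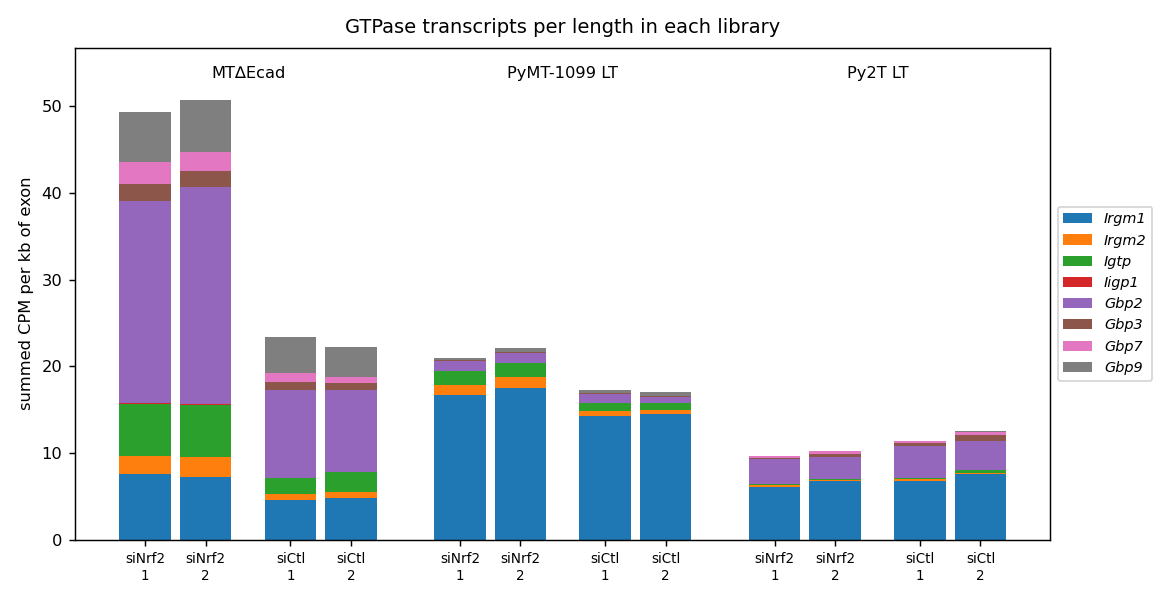
Summed CPM per kb of exon of the 8 GTPase genes, stacked by gene, in each of the 12 libraries. The MT∆Ecad bars are about 50 after siNrf2 and under 24 after siCtl with Gbp2 (purple) as the largest part, and Irgm1 (blue) makes up most of each bar in the other lines.

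Of 7 further GBP genes, 3 passed the filter. Gbp4 rose in MT∆Ecad, where it had 28.5 and 25.4 CPM after siNrf2 and 18.4 and 15.4 CPM after siCtl (log2 fold change 0.65, limma adjusted p = 0.0266). Gbp6 (0.94, adjusted p = 3.9e-04) and Gbp10 (0.87, adjusted p = 0.00492) had 1.23 to 1.71 CPM after siNrf2 and at most 0.713 CPM after siCtl, and were at or near 0 in the other lines, so that they passed the filter through the group in which they are high, had to differ there and add no support. Gbp4, Gbp6, Gbp9 and Gbp10 share part of their sequence, and reads could have been split among them. Of 9 further IRG genes, 9930111J21Rik1 and Irgq passed the filter and neither was called in any line, with log2 fold changes of 0.11 and -0.06 in MT∆Ecad. Of 5 other large interferon-induced GTPase genes, including Mx1 and Mx2, none reached 1 CPM in any library. Among the atlastins, GTPases of the endoplasmic reticulum related to GBPs in sequence, Atl1 rose in MT∆Ecad (1.07, adjusted p = 9.9e-04), and Atl2 (0.19) and Atl3 (0.31) were called with the replicate block only (adjusted p = 0.0452 and 0.0176).

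No transcript of the 10 listed interferon genes was measured above a trace, and other interferon genes were not looked at. Of these 10, 7 had 0 reads in all 12 libraries, and the highest count was 3 reads in a library, for Ifng and Ifne. In MT∆Ecad all 10 were at 0 in all 4 libraries, which allows up to 0.111 CPM for any of them in a library (3 reads, counting error only).

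Of the 9 tested interferon receptor and kinase genes, 2 rose and none fell in MT∆Ecad. Of all tested genes, 8.89% rose and 8.42% fell in this line. Ifngr2, the second chain of the interferon gamma receptor, had 72.7 and 66.5 CPM after siNrf2 and 45.6 and 39.1 CPM after siCtl (log2 fold change 0.71, limma adjusted p = 0.00903). Il10rb, a chain that the lambda interferon receptor shares with the interleukin 10 receptor, changed by 0.40 (adjusted p = 0.0385). Ifngr1, Ifnar1, Ifnar2, Ifnlr1, Jak1, Jak2 and Tyk2 had log2 fold changes between -0.09 and 0.35 and were not called. The replicate block raised the count of the list from 2 to 4, and that of all tested genes from 2164 to 5324.

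Of the 8 tested transcription factors of the interferon response, 3 were called as higher and none as lower in MT∆Ecad. Over all tested genes, 8.89% were called as higher and 8.42% as lower. Irf7, a master regulator of type I interferon induction that is itself interferon-induced, had 3.47 and 3.78 CPM after siNrf2 and 0.292 and 0.591 CPM after siCtl (1.69, limma adjusted p = 9.7e-05). It reached 1 CPM in siNrf2 libraries only, so that it passed the filter through groups in which it is high, and its call adds no support. Irf1, on which the induction of several GBP genes depends in mouse cells, had 104 and 124 CPM after siNrf2 and 66.8 and 84.1 CPM after siCtl (0.60, adjusted p = 0.0106).

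Stat3, activated mainly by the interleukin 6 family, had 211 and 230 CPM after siNrf2 and 137 and 166 CPM after siCtl (log2 fold change 0.54, limma adjusted p = 0.00867). For all 3 called factors the siNrf2 libraries lay above the siCtl libraries. Stat2 (0.71, adjusted p = 0.0726), Irf9 (0.46), Irf3 (0.41), Irf2 (0.28) and Irf8 (0.00) were not called, and the replicate block gave 7 calls in place of 3. Over all tested genes the block gave 5324 calls in this line in place of 2164. The F test of a difference between lines was not passed by Irf1 and Stat3, except with the replicate block (adjusted p = 0.00243 and 0.0418).

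None of the 7 tested inhibitors of interferon signalling was called in MT∆Ecad: Socs1, Socs3, Ptpn2, Ptpn6, Pias1, Trim24 and Irf2bp2 had log2 fold changes between -0.33 and -0.04, all below 0, with 2 called under the replicate block. In PyMT-1099 LT and Py2T LT no gene of any of these lists was called by limma. Of the 12502 tested genes, limma called 65 and 19 there. Irf7 had the largest log2 fold change of the transcription factors in PyMT-1099 LT, 0.49 (adjusted p = 0.103), with 1.06 and 1.04 CPM after siNrf2 and 0.431 and 0.486 CPM after siCtl. With the replicate block, PyMT-1099 LT gave 2 calls among the transcription factors and 1 among the receptors and kinases, and Py2T LT gave 0 in both lists.

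**Figure D5:**
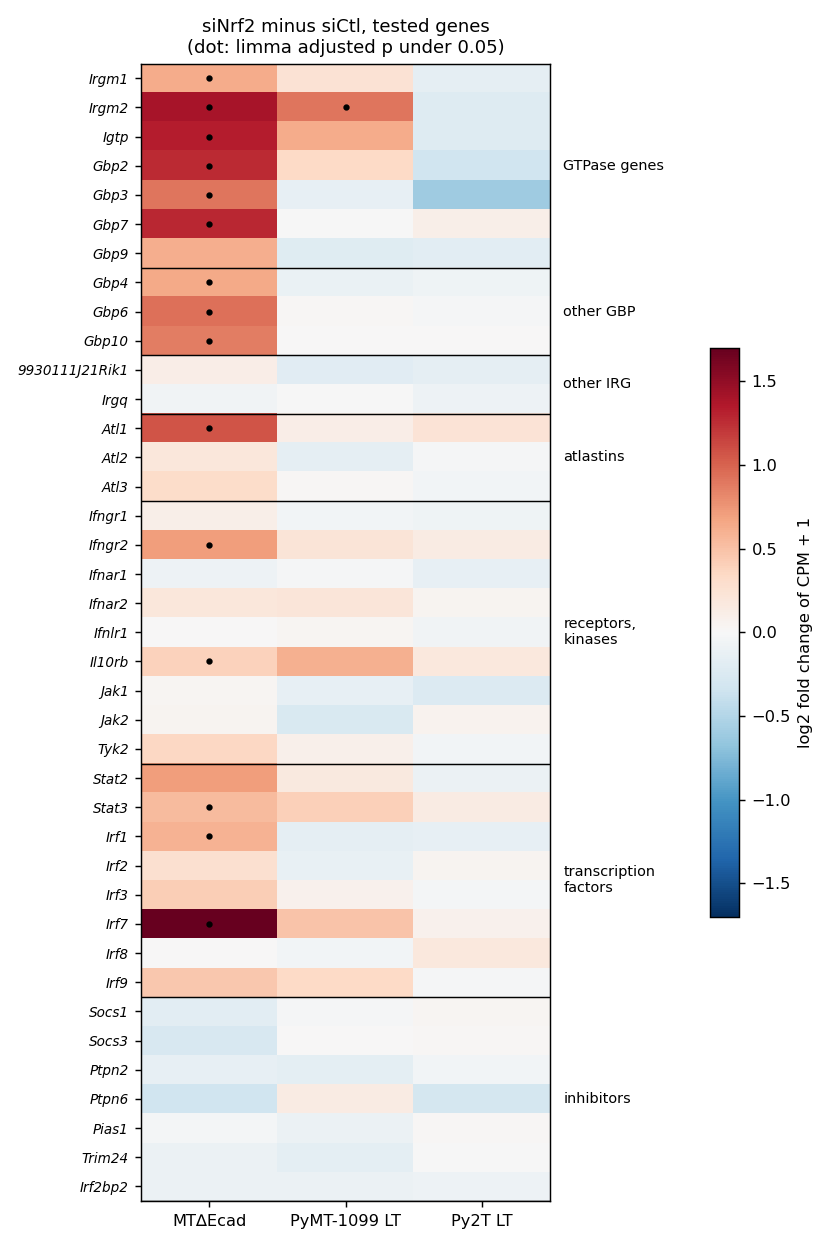
Log2 fold change of CPM + 1 (colour, siNrf2 minus siCtl) of the tested GTPase genes and the lists of related GTPases, interferon receptors and kinases, transcription factors and inhibitors, in the 3 lines. Dots mark a limma adjusted p under 0.05, and all dots but that of Irgm2 in PyMT-1099 LT lie in the MT∆Ecad column.

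Genes that act with these GTPases at vacuoles and in inflammasomes mostly did not pass. A list of 13 tested genes held the autophagy conjugation machinery that places GTPases on vacuoles. It also held Sqstm1, Traf6 and Ubqln1, which are not part of that machinery. In MT∆Ecad, Gabarap rose (log2 fold change 0.61, limma adjusted p = 0.0157) and Ubqln1, which encodes a ubiquitin-binding protein, fell (-0.35, adjusted p = 0.0229). Of all tested genes, 8.89% rose and 8.42% fell. Map1lc3a (0.51) and Map1lc3b (0.31) were not called, and Gabarap and Map1lc3a in PyMT-1099 LT (0.39 and 0.36) and Gabarap and Map1lc3b in Py2T LT (0.28 and 0.18) were the furthest from 0 there, none called. The replicate block gave 6 calls in MT∆Ecad in place of 2, and 2 in PyMT-1099 LT (Gabarap and Gabarapl1) in place of 0. Over all 12502 tested genes the block gave 5324 calls in MT∆Ecad in place of 2164, and 1125 in PyMT-1099 LT in place of 65. Of 9 tested inflammasome and pyroptosis genes, Naip2, a sensor of bacterial secretion systems, rose in MT∆Ecad (0.95, limma adjusted p = 0.00333). Casp4, the mouse caspase-11 gene, was called too (0.57, adjusted p = 0.00333), but reached 1 CPM only in the siNrf2 libraries of MT∆Ecad, through which it passed the filter, so its call adds no support. Casp1 (0.71, adjusted p = 0.103), Il18 (0.28), Ninj1 (0.24), Naip5 (0.11), Aim2 (0.00), Nlrc4 (0.00) and Gsdmd (-0.03) were not called, and the replicate block gave 4 calls in place of 2. In PyMT-1099 LT it called Gsdmd and Naip2.

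Most leukocyte and endothelial markers were near 0, but Csf1r and Cdh5 were not in PyMT-1099 LT. Some markers moved with the GTPases in MT∆Ecad. Of 8 leukocyte markers, 6 never reached 1 CPM, Cd3e was at 0 reads and Ptprc, the pan-leukocyte marker, at no more than 2 reads in any library. The summed level of the 8 was 7.47 to 8.37 CPM after siNrf2 and 4.87 to 4.96 CPM after siCtl in MT∆Ecad, from Cd68 (log2 fold change 0.52, limma adjusted p = 0.0213) and Csf1r (0.53, adjusted p = 0.0893, and 0.00439 with the replicate block). In PyMT-1099 LT it was 47.2 to 48.4 CPM after siNrf2 and 28.3 to 33.3 CPM after siCtl, and in Py2T LT 25.1 to 34.7 CPM after siNrf2 and 15.7 to 21.1 CPM after siCtl, nearly all of it Csf1r, which was called in both lines with the replicate block only (adjusted p = 0.0137 and 0.0264). Of the mesenchymal markers, Fn1 (0.76, adjusted p = 0.00122) and Col1a1 (1.49, adjusted p = 0.00503) rose in MT∆Ecad, and Vim, Zeb1, Zeb2, Cdh2, Twist1 and Snai1 were not called. With the replicate block Vim (0.13, adjusted p = 0.0481) and Zeb2 (-0.47, adjusted p = 0.0176) were called. No epithelial marker was called in a single line by limma without the block, and with it Krt18 (0.42, adjusted p = 6.3e-04) and Cldn3 (-0.25, adjusted p = 0.0459) were called in MT∆Ecad. Averaged over the 3 lines, limma without the block called 1 of 6 epithelial, 1 of 8 mesenchymal and 2 of 2 tested leukocyte markers as higher, where 5.99% of all tested genes were. Of the endothelial markers, Cdh5 alone reached 1 CPM, with a highest value of 124 CPM. Their summed level in PyMT-1099 LT was 122 to 124 CPM after siNrf2 and 88.0 to 90.7 CPM after siCtl. In Py2T LT it was 5.05 to 6.30 CPM after siNrf2 and 4.45 to 5.20 CPM after siCtl. In MT∆Ecad it was at most 0.221 CPM, and Cdh5 was not called there (0.04). In PyMT-1099 LT the block also called Zeb2 (-0.82), Krt18 (0.30) and Cdh5 (0.46). The part of these markers in the GTPase differences was not tested.

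The members also followed each other within the lines. With each gene centred within its line, the 21 pairs of tested members had Pearson correlations between 0.44 and 0.95 over the 12 libraries, with a median of 0.78. Uncentred, where the levels of the lines enter, they ran from -0.72 to 0.98. The libraries share depth and the siRNA contrast, so these values only describe them. The higher siNrf2 values of MT∆Ecad enter the centred correlations, and no correlation was computed within a single line. The 5 other genes most like the mean of the members, centred within lines, were Vwa8 (r = 0.98), Parp9 (0.98), Ddx58 (0.97), Glt8d1 (0.97) and Mylk (0.97). Ddx58 encodes the cytosolic RNA sensor RIG-I, and MT∆Ecad showed a log2 fold change of 1.07 for it, PyMT-1099 LT 0.36 and Py2T LT 0.01. Parp9, an ADP-ribosyltransferase family member, changed by 0.99, 0.19 and -0.22 on that scale, in the same order of lines. Uncentred, the closest were Glt8d1 (0.99), P4ha1 (0.99), Scarb2 (0.99), Lctl (0.99) and Cd28 (0.99) over the same 12 libraries.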

How the data were processed

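RNA was sequenced as single 81-base reads from ribosomal RNA-depleted stranded libraries made from 200 ng, per the labels' protocols. STAR and mm10 are named in the submitters' processing notes. The counter, annotation and use of strand are not given in the sources used here. The authors deposited CPM for 24454 Entrez IDs. All CPM values were whole reads within a tolerance of 0.01, and 24374 IDs matched RefSeq symbols.

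limma 3.58.1 (R 4.3.3) was fitted to log2(CPM + 1) of 12 libraries with 6 group means and a variance trend, which leaves 6 residual degrees of freedom, and tests were two-sided. The alternatives were edgeR 4.0.16 and DESeq2 1.42.0 on the recovered reads, TMM scaling, other pseudocounts and filters, fits of single lines, a replicate block and leaving out each library. The test was tried on simulated data first. Deviations of same-numbered libraries correlated within each line (r = 0.62 to 0.85), so the numbers were taken to pair them, and a blocked value or count stands where it changes a call.

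SD is over 2 libraries, and p-values measure the spread between cultures of single lines. Named genes are all members, Nfe2l2, every tested gene of lists with at most 10 tested members, the furthest from 0 of the longer list, and the 5 closest by correlation, centred and uncentred. The members and lists were chosen with earlier results of these data known. An item of these lists is not reported here.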

Additional observations from a re-analysis of the deposited data

Results flagged for a closer look

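The siNrf2 effect differed between the 3 lines for 5 GTPase genes by the F test of the difference, with limma adjusted p-values of 0.0389 for Irgm1, 0.00956 for Irgm2, 0.0114 for Igtp, 0.00932 for Gbp2 and 0.0358 for Gbp3. For each of them the log2 fold change was highest in MT∆Ecad and lowest in Py2T LT. No group was large enough for a search for outlying libraries.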

How the results depend on the processing

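The count of called GTPase genes in MT∆Ecad stayed between 5 and 7 under every alternative and every left-out library, and Irgm1, Irgm2, Igtp, Gbp2 and Gbp7 were called in all of them. In PyMT-1099 LT the count of 1 became 0 with a pseudocount of 0.1, with edgeR and in a fit of the line alone, 2 with a pseudocount of 5 and 3 with the replicate block. In Py2T LT the count of 0 became 1 with the replicate block. Averaged over lines, 5 became 3 with a pseudocount of 0.1, edgeR and DESeq2, and 4 without a filter, where Gbp7 was lost. By the F test of the difference, 5 became 2 with a pseudocount of 0.1 and 1 with edgeR. For MT∆Ecad minus PyMT-1099 LT, 1 became 0 with a pseudocount of 0.1, edgeR and DESeq2, and 6 with a pseudocount of 5 or the replicate block. It stayed 1 in a fit of these lines alone and without a filter, but Gbp3 or Iigp1 (adjusted p = 0.0175) was called in place of Gbp2. For MT∆Ecad minus Py2T LT, 5 became 3 with a pseudocount of 0.1, edgeR and a fit of these lines alone, 6 without a filter and 7 with a pseudocount of 5 or the replicate block. Leaving out 1 library gave 0 to 1 calls in PyMT-1099 LT, 0 to 0 in Py2T LT, 3 to 5 on average, 0 to 5 by the F test, 0 to 1 for MT∆Ecad minus PyMT-1099 LT and 3 to 5 for MT∆Ecad minus Py2T LT. Between siCtl lines it gave 6 to 7 calls. The cause was not tested.

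Over single members, 1467 refitted values kept their direction and side of the threshold or moved uncalled, 104 lost and 27 gained a call. Of 1458 refitted fold changes, 24 changed sign, and 0 of these were called. Over all genes, the count called in MT∆Ecad was 2164, and 5324 with the replicate block. In PyMT-1099 LT it was 65, 0 in a fit of the line alone, 13 with edgeR, 18 and 123 with pseudocounts of 0.1 and 5, 36 with a filter at 5 CPM, 125 without a filter and 1125 with the block. In Py2T LT it was 19, and in the same order 0, 6, 8 and 30, 12, 30 and 127, with 33 by DESeq2. The average gave 1532, 856 with edgeR and 4997 with the block. The F test gave 273, 20 with edgeR, 58 and 437 with pseudocounts of 0.1 and 5 and 2377 with the block. The difference from PyMT-1099 LT gave 226, 92 in these lines alone, 7 with edgeR, 146 with DESeq2, 15 and 375 with these pseudocounts, 137 with the filter at 5 CPM and 1810 with the block. That from Py2T LT gave 437, 80 in these lines alone, 83 with edgeR, 159 with a pseudocount of 0.1 and 2859 with the block. That between the MMTV-PyMT lines gave 1, and 0 to 16 under the alternatives. Leaving out 1 library, MT∆Ecad gave 1316 and 560 without its siNrf2 replicate 1 or 2, 550 and 1315 without its siCtl replicate 1 or 2, and up to 2666 without any other. The F test gave 26 without siCtl replicate 1 and 28 without siNrf2 replicate 2 of MT∆Ecad, and up to 192. The difference from PyMT-1099 LT gave 24 to 212 and that from Py2T LT 64 to 364, both lowest without siNrf2 replicate 2 of MT∆Ecad, and the average, lowest there too, 645 to 2127. PyMT-1099 LT gave 6, without its siNrf2 replicate 1, to 66, and Py2T LT 5 to 11.

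Depth limits Iigp1 in all lines, Gbp3 and Gbp7 in PyMT-1099 LT, and Irgm2, Igtp and Gbp9 in Py2T LT, all under 1 CPM or close to it. With 2 libraries a group, a missed threshold does not show that values did not differ.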

Other observations

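The ISRE core was also looked for in the promoters of other genes that siNrf2 changed in MT∆Ecad. It was held by 6.12% of 1161 promoters of genes that rose and by 2.26% of 1063 promoters of genes that fell, beside 2.82% of the promoters of all tested genes. Among the genes whose siNrf2 effect differed between lines by the F test, 10.9% of 257 promoters held it. The GTPase promoters are among these, and no test was made.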
